A study of Homo sapiens with 16 samples.

Results

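The genes described here encode the LSD1-CoREST histone demethylase complex and the SNAG-domain repressors GFI1 and GFI1B that bring it to DNA. They were the 10 genes KDM1A, RCOR1, RCOR2, RCOR3, HDAC1, HDAC2, PHF21A, HMG20B, GFI1 and GFI1B, found by symbol among the 62700 genes of the count table. The data came from OCI-AML3, an established human acute myeloid leukaemia cell line, profiled by RNA-seq in 16 libraries 3 h after treatment. The groups were untreated cells (n = 4), 0.1 µM ATRA, all-trans retinoic acid, which activates every retinoic acid receptor (n = 3), 0.1 µM Am80 (AM80 in the labels), the RARA-selective agonist tamibarotene (n = 3), and each retinoid together with 0.1 µM GSK-LSD1, an LSD1 inhibitor, and 100 µM MB3, a GCN5 inhibitor (n = 3 each). The paired drugs are called the inhibitors here, and no library of cells given them without a retinoid, or given 1 of them alone, was analysed, so their parts cannot be told apart. All libraries come from 1 cell line, and the labels do not say whether repeats were separate cultures, so p-values measure only the spread between these libraries, which may be technical.

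LSD1, encoded by KDM1A, removes methyl groups from lysine 4 of histone H3. Its stability and its activity on nucleosomes depend on the scaffold CoREST, the product of RCOR1. RCOR2 and RCOR3 encode paralogs of this scaffold, and how far each supports that activity was not examined here. CoREST also holds the deacetylases HDAC1 and HDAC2, so that acetyl and methyl marks are removed by the same complex, and PHF21A (BHC80) and HMG20B (BRAF35) are further subunits. GFI1 in myeloid and lymphoid cells and GFI1B in erythroid cells and megakaryocytes dock on LSD1 through an N-terminal SNAG domain whose first residues resemble the histone H3 tail, and LSD1 inhibitors that occupy the active site are known to release them.

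The SNAG domain is shown because it is the contact between LSD1 and these factors. The first 60 coding bases (20 codons, 5′ to 3′ on the coding strand) were read from the GRCh38 genome with the GENCODE 29 annotation, each from a single coding exon. They lie at chr1:92483428-92483487 on the minus strand for GFI1 and at chr9:132986679-132986738 on the plus strand for GFI1B. Capitals mark the bases that are the same in both genes.
GFI1: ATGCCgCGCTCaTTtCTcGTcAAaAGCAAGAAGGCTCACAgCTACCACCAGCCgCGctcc
GFI1B: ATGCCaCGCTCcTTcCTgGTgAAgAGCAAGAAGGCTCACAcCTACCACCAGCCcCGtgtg
GFI1 and GFI1B shared 48 of the 60 bases (80%).

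Between 11963898 and 33789718 reads were counted per library, a 2.82-fold range. Of the 10 genes, 9 averaged 10 or more normalized counts over the libraries and entered the test with 14643 genes in all. GFI1B was the exception. All 7 myeloid markers examined reached that mean (CD33, SPI1, CEBPA, MPO, CSF3R, ANPEP and LYZ), against 1 of 10 erythroid and megakaryocytic, 2 of 7 lymphoid and 2 of 4 stromal, endothelial or epithelial markers. The summed level of the erythroid and megakaryocytic list lay between 26.1 and 57.1 normalized counts in every library, and HBG1 and PF4 had no read in any library. The stromal, endothelial and epithelial list, most of it PECAM1, summed to between 1047 and 1253 in untreated cells, 2575 and 2846 with a retinoid and 1729 and 2211 with the inhibitors, and its part in the results was not tested. Untreated replicate 4 and Am80 replicate 2 stood farthest from their groups, at mean distances of 25.66 and 25.98 to the other libraries. Untreated replicate 1 was almost as far, at 25.05. Leaving out the first 2 together was chosen after seeing the data, and results are given without them where they change a call. The deposited values are scaled by size factors, which centre the typical gene. When libraries were scaled to their total reads instead, the median gene's difference on adding the inhibitors was shifted by -0.145 (ATRA) and -0.123 (Am80) log2 units, so every difference below is relative to the typical gene.

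Levels were compared between genes per kilobase of annotated exon. In untreated cells GFI1 had the highest mean at 1012 ± 33.0 normalized counts per kb (SD, n = 4), followed by HDAC1 at 950 ± 88.0, and their library ranges overlapped. KDM1A (481 ± 15.4) and HMG20B (453 ± 70.7) overlapped each other, and so did HMG20B and RCOR1 (381 ± 31.3). HDAC2 (248 ± 11.9), RCOR3 (141 ± 11.6), PHF21A (50.1 ± 5.48) and RCOR2 (12.8 ± 3.14) followed, each below the lowest library of the gene before it. The HDAC2 value is divided by 15461 exon bases, the largest length among these genes, so its place depends on that annotation. In ATRA with the inhibitors the first places were taken by GFI1 (1352 ± 40.7), HDAC1 (891 ± 25.6), RCOR1 (518 ± 33.0) and KDM1A (360 ± 6.04), with no overlap between neighbours. In Am80 with the inhibitors RCOR1 (534 ± 8.38) was likewise above KDM1A (361 ± 16.9).

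**Figure D1:**
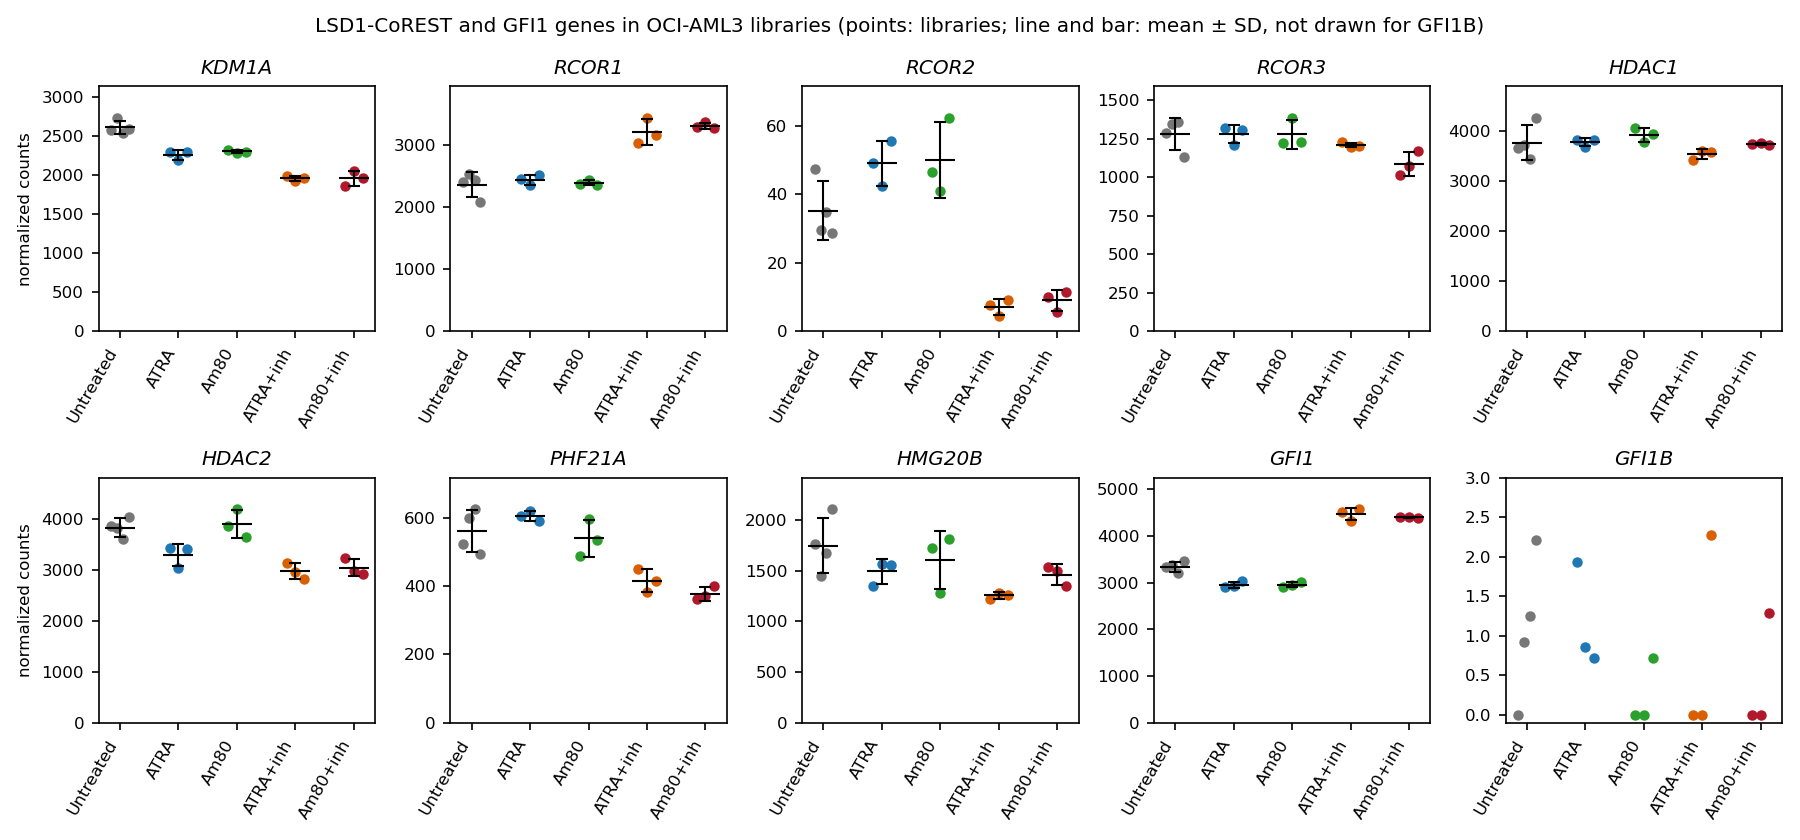
Normalized counts (vertical axes, linear, each panel on its own scale) of the 10 genes in the 16 libraries by treatment (horizontal axes; "+inh" means with GSK-LSD1 and MB3), with points for libraries and a line with bars for the mean ± SD. GFI1 and RCOR1 libraries with inhibitors lie above all others, RCOR2 libraries with inhibitors lie between 4.35 and 11.6 below all others, and GFI1B never exceeds 2 reads.

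GFI1, the zinc-finger repressor that recruits LSD1 through its SNAG domain, was lower with either retinoid and higher once the inhibitors were added. Its normalized counts were 3325, 3367, 3204 and 3467 in untreated cells, 2897, 2925 and 3032 with ATRA, and 2906, 2946 and 3013 with Am80. With the inhibitors they were 4514, 4310 and 4564 (ATRA) and 4398, 4405 and 4377 (Am80). All retinoid libraries lay below all untreated ones, and all libraries with inhibitors lay above both. Relative to the retinoid alone, GFI1 was 1.51-fold higher with ATRA (log2 difference 0.60, SE 0.06, adjusted p = 5.94e-08) and 1.49-fold higher with Am80 (0.57, SE 0.06, adjusted p = 9.97e-08), from limma with Benjamini-Hochberg adjustment over all genes. Scaled to total reads the differences were 0.45 in both comparisons.

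GFI1B, the erythroid and megakaryocytic paralog, was at the floor in all groups. Its reads were 0, 1, 1 and 2 in untreated cells, 2, 1 and 1 with ATRA, 0, 0 and 1 with Am80, 0, 0 and 2 with ATRA and inhibitors, and 0, 0 and 1 with Am80 and inhibitors. No library exceeded 3 reads, so no fold change is given, and no difference was detectable at this depth. The erythroid factor GATA1 also stayed at no more than 3 reads per library.

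KDM1A, the demethylase itself, was lower in each treated group than in untreated cells, in 2 steps. The untreated libraries had 2587, 2737, 2543 and 2597 normalized counts, those with ATRA 2303, 2193 and 2298, and those with Am80 2330, 2291 and 2303. With the inhibitors the counts were 1993, 1927 and 1963 (ATRA) and 1868, 2052 and 1965 (Am80). The 3 levels did not overlap. Adding the inhibitors lowered KDM1A to 0.866-fold with ATRA (log2 difference -0.21, SE 0.06, adjusted p = 0.00607) and to 0.849-fold with Am80 (-0.24, SE 0.06, adjusted p = 0.00308; limma). These are transcript levels of the drug's target and are no measure of its enzyme activity.

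On adding the inhibitors, the scaffold genes RCOR1 and RCOR2 were called higher and lower, respectively, with both retinoids, and RCOR3 was called lower with Am80 and not with ATRA. RCOR1, the most abundant paralog, had 2083 to 2527 normalized counts over the 10 libraries without inhibitors. With them it had 3038, 3437 and 3158 (ATRA) and 3284, 3370 and 3277 (Am80), so the groups did not overlap. It was 1.32-fold higher with ATRA (log2 difference 0.39, SE 0.07, adjusted p = 0.000121) and 1.38-fold higher with Am80 (0.47, SE 0.07, adjusted p = 2.43e-05), from limma. The differences were smaller when scaled to total reads (0.25 and 0.34), and both were still called.

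RCOR2, a low-abundance paralog known from neural and embryonic stem cells, had the largest difference of the 9 tested genes. Its normalized counts were 47.4, 29.6, 34.9 and 28.8 in untreated cells, 49.2, 42.3 and 55.5 with ATRA, and 46.4, 40.9 and 62.2 with Am80. They were 7.81, 4.35 and 9.09 with ATRA and inhibitors, from 4 to 8 reads per library, and 9.87, 5.50 and 11.6 with Am80 and inhibitors, from 4 to 9 reads. The lowest library without inhibitors was above the highest with them. RCOR2 fell 6.36-fold with ATRA (log2 difference -2.67, SE 0.29, adjusted p = 4.28e-07) and 5.21-fold with Am80 (-2.38, SE 0.29, adjusted p = 2.01e-06; limma), on a log2(value + 1) scale that understates the change of low genes. By size these were the 4th and the 8th lowest of the 14643 differences. RCOR2 is among the genes that the study picked from these libraries, so its value here is no independent evidence.

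RCOR3, the second paralog by level, had 1289, 1347, 1360 and 1131 normalized counts in untreated cells and between 1211 and 1385 with a retinoid alone. With the inhibitors it had 1227, 1200 and 1201 (ATRA) and 1016, 1072 and 1169 (Am80). It was called lower with Am80 (log2 difference -0.23, SE 0.08, adjusted p = 0.0230; limma), with all 3 libraries below the 3 of Am80 alone, and not with ATRA (-0.08, 95% interval -0.25 to 0.08). The 2 effects were not shown to differ, since the interaction was -0.15 (95% interval -0.39 to 0.08). The call with Am80 rests on single libraries: without Am80 replicate 2 the adjusted p was 0.0915, and without replicate 1 or 2 of Am80 with inhibitors it was 0.108 or 0.0656.

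Within the RCOR family, the make-up per kb of exon therefore differed with the inhibitors. RCOR1 made up 71.3% ± 0.52 (SD, n = 4) of the 3 paralogs in untreated cells, 71.3% ± 0.58 with ATRA and 70.9% ± 0.76 with Am80 (n = 3 each). It made up 79.2% ± 1.28 and 81.3% ± 1.22 with the inhibitors, above all libraries without them. The RCOR3 share was 26.3% ± 0.43 in untreated cells, 25.5% ± 0.45 with ATRA and 25.8% ± 1.18 with Am80. With the inhibitors it was 20.4% ± 1.16 and 18.2% ± 1.12. A share also falls when another paralog rises, and RCOR3 itself was not called on adding the inhibitors to ATRA. The RCOR2 share was 2.40% ± 0.54, 3.23% ± 0.32 and 3.35% ± 0.79 without inhibitors and 0.400% ± 0.15 and 0.501% ± 0.18 with them.

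**Figure D2:**
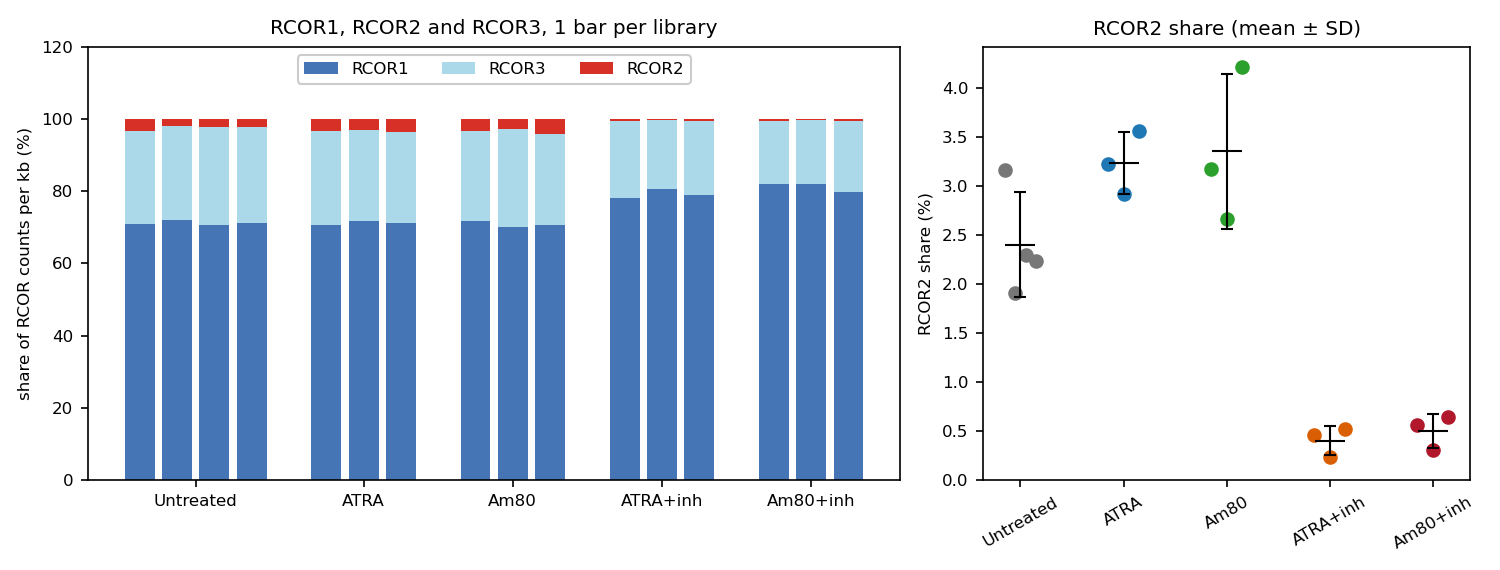
Left, the share (%) of RCOR1, RCOR3 and RCOR2 in their summed normalized counts per kb, 1 bar per library by treatment; right, the RCOR2 share alone (%), with points for libraries and a line with bars for the mean ± SD. RCOR1 lies between 70.2% and 71.9% in libraries without inhibitors and between 78.0% and 82.1% with them.

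The ratio of scaffold to enzyme transcripts followed. RCOR1 per kb was 0.793 ± 0.061 times KDM1A in untreated cells (SD, n = 4), 0.945 ± 0.014 with ATRA and 0.910 ± 0.022 with Am80. It was 1.44 ± 0.12 and 1.48 ± 0.053 with the inhibitors. For GFI1 over KDM1A the ratio was between 2.03 and 2.20 in all 10 libraries without inhibitors and between 3.54 and 3.88 in all 6 with them. Such ratios are free of the scaling between libraries and concern RNA, not protein.

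The deacetylases HDAC1 and HDAC2, which CoREST shares with other complexes, differed from each other. HDAC1 had 3430 to 4253 normalized counts in untreated cells, 3674 to 4049 with a retinoid and 3413 to 3762 with the inhibitors, and was not called in any of the 9 comparisons. Without Untreated replicate 4 and Am80 replicate 2 it was called higher with Am80 than in untreated cells (log2 difference 0.15, adjusted p = 0.0367; limma). Its log2 difference on adding the inhibitors was -0.09 (95% interval -0.24 to 0.05) with ATRA and -0.07 (-0.21 to 0.08) with Am80. Scaled to total reads it was called lower in both (-0.24 and -0.19). HDAC2 had 3866, 3814, 3598 and 4046 normalized counts in untreated cells, 3424, 3034 and 3413 with ATRA, and 3870, 4185 and 3636 with Am80. With the inhibitors it had 3133, 2957 and 2822 (ATRA) and 3232, 2981 and 2925 (Am80), all below the untreated libraries. Adding the inhibitors to Am80 lowered it to 0.782-fold (log2 difference -0.35, SE 0.07, adjusted p = 0.000573; limma), while with ATRA the difference was -0.15 (95% interval -0.30 to 0.00) and was not called, and the interaction was -0.21 (-0.42 to 0.01). The difference with ATRA was called by limma without Untreated replicate 4 and Am80 replicate 2 (adjusted p = 0.0302) and with only the groups compared (adjusted p = 0.0378). HDAC1 made up 79.3% ± 0.78 of the pair per kb in untreated cells (SD, n = 4), 81.7% ± 0.70 with ATRA and 79.7% ± 1.59 with Am80 (n = 3 each), and 82.2% ± 1.16 and 82.7% ± 0.79 with the inhibitors. HDAC2 overlaps the antisense gene HDAC2-AS2 by 69 exon bases.

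Of the other subunits, PHF21A was lower with the inhibitors, and HMG20B was not called on adding them. PHF21A, whose PHD finger reads unmethylated lysine 4 of histone H3, had 523, 600, 624 and 495 normalized counts in untreated cells, 604, 620 and 589 with ATRA, and 489, 595 and 534 with Am80. With the inhibitors it had 450, 383 and 415 (ATRA) and 362, 370 and 400 (Am80), below all other libraries. It fell to 0.687-fold with ATRA (log2 difference -0.54, SE 0.10, adjusted p = 0.000124) and to 0.702-fold with Am80 (-0.51, SE 0.10, adjusted p = 0.000282; limma). HMG20B, an HMG-box protein, varied more between replicates: 1447 to 2105 in untreated cells, 1355 to 1568 with ATRA, 1284 to 1811 with Am80, 1219 to 1286 with ATRA and inhibitors, and 1345 to 1541 with Am80 and inhibitors. Its differences on adding the inhibitors were -0.25 (95% interval -0.50 to 0.00) and -0.12 (-0.37 to 0.13) and were not called. Without Untreated replicate 4 and Am80 replicate 2 they were called at the same or a larger size (adjusted p = 0.00302 and 0.00413). HMG20B shares 369 of its 3857 exon bases with MFSD12 on the opposite strand, and the strand setting of the counting is not given in the sources used here.

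Counted over the 9 tested genes, 5 were called on adding the inhibitors to ATRA at an adjusted p under 0.05 (GFI1 and RCOR1 higher, KDM1A, PHF21A and RCOR2 lower), where 49.3% of all genes were called. On adding them to Am80, 7 were called (the same 5, with HDAC2 and RCOR3 also lower), where 39.5% of all genes were. The 2 higher genes stand against 24.9% and 19.9% of all genes called higher, and the 3 and 5 lower genes against 24.4% and 19.5% called lower. Past 1.5-fold there were 2 (GFI1 and RCOR2) and 1 (RCOR2), against 19.5% and 15.7%. The median log2 difference of the 9 genes was -0.15 and -0.23, against -0.02 and -0.01 over all genes. Scaled to total reads, 9 (2 higher, 7 lower) and 8 (2 higher, 6 lower) were called, where 15.1% and 12.4% of all genes were called higher and 35.6% and 30.1% lower. The 2 comparisons share no library.

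**Figure D3:**
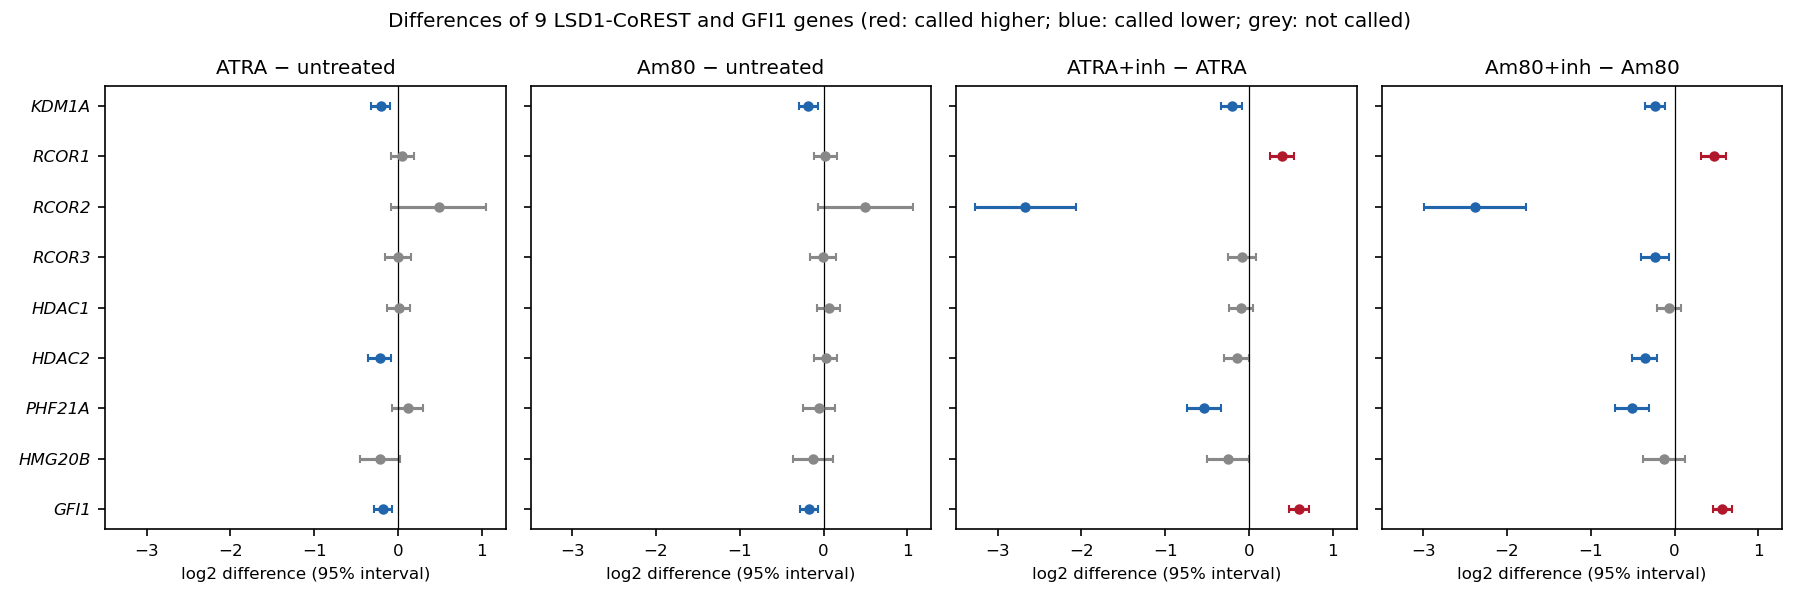
Log2 differences (horizontal axes, with 95% intervals from limma) of the 9 tested genes for each retinoid against untreated cells and for adding the inhibitors to each retinoid. Red marks genes called higher, blue lower and grey neither, and RCOR2 lies at -2.67 and -2.38 on adding the inhibitors, apart from the rest.

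With the retinoids alone the differences were small. Against untreated cells ATRA lowered KDM1A (log2 difference -0.21, adjusted p = 0.00727), HDAC2 (-0.22, adjusted p = 0.0205) and GFI1 (-0.18, adjusted p = 0.0151), which is 3 of the 9 genes where 24.6% of all genes were called by limma. Am80 lowered KDM1A (-0.18, adjusted p = 0.0165) and GFI1 (-0.18, adjusted p = 0.0141), which is 2 of 9 where 28.8% were called. None passed 1.5-fold. RCOR2 was 0.49 and 0.50 higher on the log2 scale (95% intervals -0.08 to 1.05 and -0.07 to 1.07) and was not called. These 2 comparisons share the untreated libraries, and the calls of HDAC2 and GFI1 with ATRA and of KDM1A and GFI1 with Am80 were lost in some of the alternatives given at the end.

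Against untreated cells, both combinations had 7 of the 9 genes called, where 60.2% (ATRA) and 54.7% (Am80) of all genes were called. GFI1 (log2 differences 0.42 and 0.40) and RCOR1 (0.44 and 0.49) were higher in both. KDM1A (-0.42 and -0.42), HDAC2 (-0.37 and -0.33), PHF21A (-0.43 and -0.57) and RCOR2 (-2.18 and -1.88) were lower in both. HMG20B passed the threshold with ATRA (-0.46) and not with Am80 (-0.25), and RCOR3 with Am80 (-0.24) and not with ATRA (-0.08). The difference between the combinations was 0.22 for HMG20B (95% interval -0.03 to 0.47) and -0.16 for RCOR3 (-0.32 to 0.01), and neither was called. Without Untreated replicate 4 and Am80 replicate 2, limma called RCOR3 in ATRA with inhibitors against untreated cells (-0.14, adjusted p = 0.0413) and HMG20B between the combinations (0.22, adjusted p = 0.0310).

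ATRA and Am80 were also compared directly, at the same dose and time. None of the 9 genes was called by limma between Am80 and ATRA, where 0.239% of all genes were, between the 2 combinations, where 0% were, or for the interaction of retinoid and inhibitors, where 0% were. At an unadjusted p under 0.05 the counts were 1, 0 and 0, where 2042, 2656 and 2211 of the 14643 genes (13.9%, 18.1% and 15.1%) were. The 1 gene was HDAC2, higher with Am80 than with ATRA by 0.24 log2 units (95% interval 0.09 to 0.39, adjusted p = 0.134 by limma), with no overlap between the 3 libraries of each. edgeR called none in the 3 comparisons and DESeq2 called HDAC2 in the first (adjusted p = 0.0352). For GFI1 the interval of the difference was -0.11 to 0.12, for KDM1A -0.09 to 0.15 and for RCOR2, the least precise, -0.60 to 0.62. With the inhibitors the intervals were -0.14 to 0.09 for GFI1, -0.12 to 0.12 for KDM1A and -0.31 to 0.91 for RCOR2.

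A further list of 15 genes held other proteins that bind LSD1 or CoREST, other SNAG-domain factors and the LSD1 paralog KDM1B. Of these, 13 passed the filter. On adding the inhibitors, 5 were called higher and 4 lower with ATRA, and 4 higher and 4 lower with Am80, with median log2 differences of 0.17 and 0.14. Over all genes, 24.9% were called higher and 24.4% lower with ATRA, and 19.9% higher and 19.5% lower with Am80. SNAI1, the zinc-finger repressor that also carries a SNAG domain, rose most: its normalized counts were 141 to 172 in untreated cells, 118 to 163 with a retinoid, 463, 606 and 507 with ATRA and inhibitors, and 779, 775 and 648 with Am80 and inhibitors. The log2 differences were 2.07 (SE 0.12, adjusted p = 1.39e-10) and 2.39 (SE 0.12, adjusted p = 1.40e-11; limma). The CoREST-associated zinc-finger proteins ZNF217 (0.61 and 0.58) and ZMYM2 (0.42 and 0.33) also rose with both retinoids. ZMYM3, a relative of ZMYM2, fell (-0.85 and -0.88), as did RREB1 (-0.62 and -0.65) and the haematopoietic factor TAL1 (-0.61 and -0.84).

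HDAC1 and HDAC2 also serve the NuRD, SIN3, MIER and MiDAC complexes, and all 20 genes of that list were tested. With each retinoid 4 were called higher and 4 lower on adding the inhibitors, and 12 were not called. The 8 of 20 called stand against 49.3% (ATRA) and 39.5% (Am80) of all genes, so the count is no result about the list. The median differences were -0.02 and 0.03. MIER1, a scaffold with the same ELM2-SANT architecture as CoREST (0.62 and 0.37), and the methyl-CpG binding protein MBD2 (0.57 and 0.37) rose. MBD3 (-0.62 and -0.35), the NuRD remodeller CHD4 (-0.22 and -0.35) and TRERF1 (-0.66 and -0.55) fell.

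Genes reported to be repressed by GFI1 or by its paralog GFI1B were read from a list of 21, of which 20 passed the filter. Their median log2 difference on adding the inhibitors was -0.11 with ATRA and -0.12 with Am80. With ATRA 3 were called higher and 7 lower, and with Am80 4 higher and 8 lower, where 24.9% and 19.9% of all genes were called higher and 24.4% and 19.5% lower. The 3 that rose in both were the interleukin-7 receptor gene IL7R (2.24 and 2.29), the HLH inhibitor ID3 (1.99 and 1.93) and the early growth response factor EGR1 (1.55 and 1.80). IL7R had 106 to 139 normalized counts in untreated cells, 49.2 to 73.0 with a retinoid and 241 to 372 with the inhibitors. In untreated cells ID3 averaged 65.7 ± 12.1 normalized counts (SD, n = 4), against 13.9 ± 6.41 after ATRA and 18.2 ± 2.51 after Am80, and with the inhibitors 53.9 ± 1.0 and 72.3 ± 9.13 (n = 3 each), nearer to untreated cells than to the retinoids alone. EGR1 had means of 316 in untreated cells, 268 and 256 with the retinoids and 790 and 912 with the inhibitors, above untreated cells. Of the 5 called lower in both, the 4 with the largest differences were SOCS3 (-1.69 and -1.29), the growth factor CSF1 (-1.30 and -1.23), its receptor CSF1R (-0.82 and -0.92) and MYC (-0.72 and -0.94). The remaining gene was SPI1 (-0.57 and -0.41). SOCS3 had a mean of 21.1 ± 5.18 in untreated cells, 51.1 ± 12.6 and 49.9 ± 8.42 with the retinoids, and 15.5 ± 5.81 and 19.9 ± 4.12 with the inhibitors. CSF1 had 18.0 ± 2.58, then 39.5 ± 7.42 and 38.5 ± 11.5, and 15.5 ± 3.32 and 15.7 ± 3.54 in the same order. Both were thus highest with the retinoids alone, and their means with the inhibitors lay nearer to untreated cells. For MYC the means were 6330 in untreated cells, 3483 and 3396 with the retinoids and 2117 and 1768 with the inhibitors, lower at each step. Of 8 genes reported to respond to LSD1 inhibitors in myeloid cells, 7 were tested, and 4 (ATRA) and 3 (Am80) were called higher and none lower, against the same shares of all genes. Those called with both were the costimulatory receptor CD86 (0.91 and 0.78), lysozyme LYZ (0.70 and 0.52) and the proteoglycan VCAN (0.61 and 0.48). CD86 had 280 to 328 normalized counts in untreated cells, 487 to 585 with a retinoid and 873 to 1003 with the inhibitors. LYZ had a mean of 11102 ± 916 normalized counts in untreated cells, 6978 ± 240 with ATRA and 7950 ± 355 with Am80, and 11369 ± 471 and 11373 ± 333 with the inhibitors, close to the untreated mean. VCAN had means of 4157 ± 704 in untreated cells, 3913 ± 183 and 3384 ± 399 with the retinoids, and 5980 ± 346 and 4724 ± 481 with the inhibitors. All these are values of whole cultures, in which a change in the share of cells and a change in RNA per cell cannot be told apart.

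**Figure D4:**
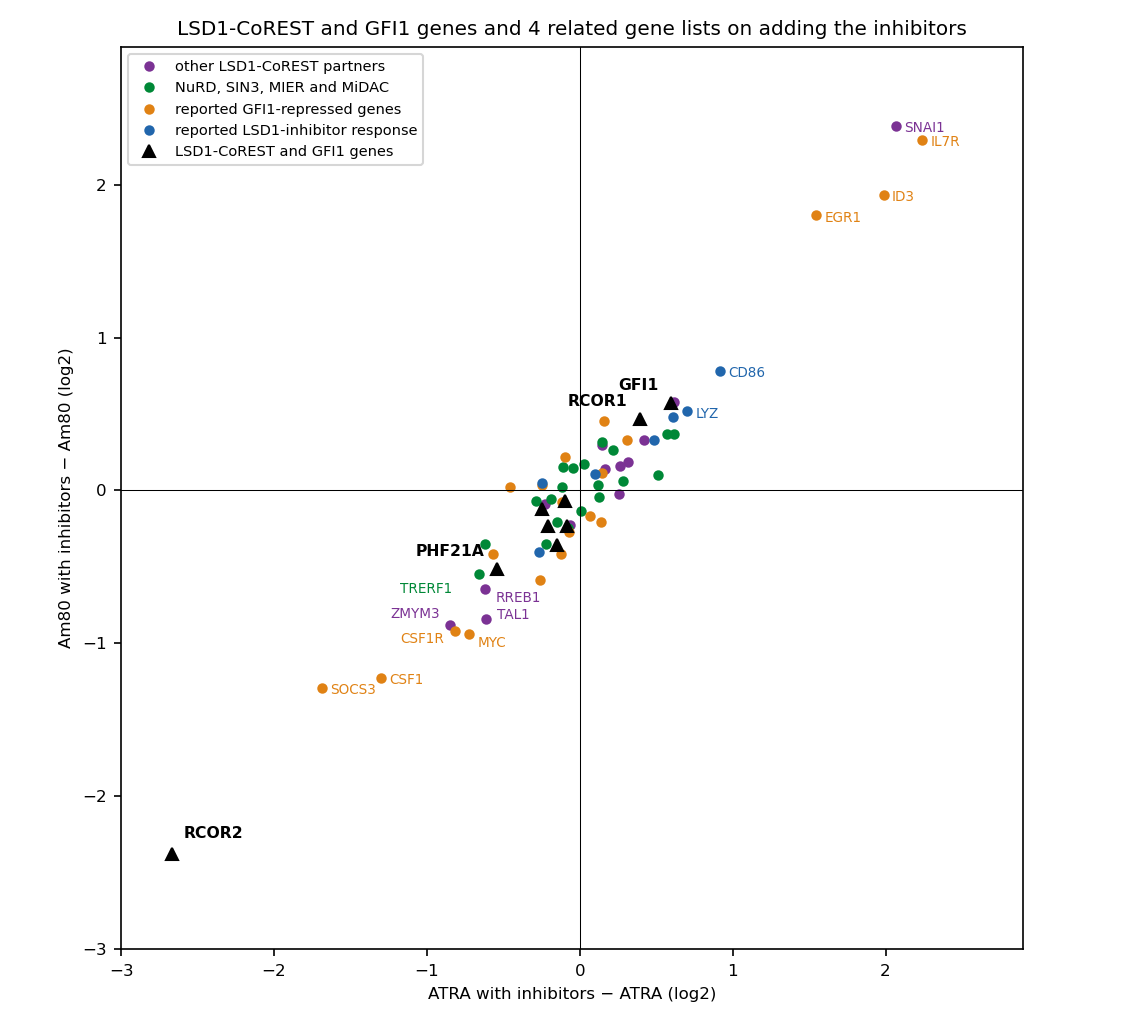
Log2 differences on adding the inhibitors to ATRA (horizontal axis) and to Am80 (vertical axis) for the 9 tested genes (triangles) and the tested genes of 4 related lists (circles). SNAI1, IL7R, ID3 and EGR1 lie at the upper right, all above 1.5 on both axes, and RCOR2 lies below -2 on both axes, farther to the lower left than SOCS3 and CSF1.

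For each gene called in both inhibitor comparisons and averaging 50 or more normalized counts, the 2 genes with the most similar log2 profile over the 16 libraries were sought among 11300 genes. The Pearson correlations are descriptions, since the libraries share treatments and 5 group means set most of the pattern. They were MEX3A (0.974) and PWP1 (0.973) for KDM1A, ATP2A2 (0.987) and PCF11 (0.986) for RCOR1, PPARGC1B (0.965) and RBM12B (0.963) for PHF21A, and BIN2 (0.982) and SPRY4 (0.980) for GFI1. MEX3A had a mean of 545 normalized counts in untreated cells and of 187 and 178 with the inhibitors. SPRY4, an inhibitor of receptor tyrosine kinase signalling, had means of 958, 2241 and 2542 in the same groups.

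GFI1 and RCOR1 were the 2 genes that were higher with the inhibitors, and the bases upstream of them are shown for that reason. The windows hold 250 bases before an annotated start site from RefSeq (GRCh38.p14), at chr1:92486926-92487175 on the minus strand for GFI1 and chr14:102592399-102592648 on the plus strand for RCOR1. Capitals mark matches on either strand to AATC, the core that GFI1 is known to bind, or to AGGTCA, the hexamer that retinoic acid receptors are known to bind in pairs.
GFI1: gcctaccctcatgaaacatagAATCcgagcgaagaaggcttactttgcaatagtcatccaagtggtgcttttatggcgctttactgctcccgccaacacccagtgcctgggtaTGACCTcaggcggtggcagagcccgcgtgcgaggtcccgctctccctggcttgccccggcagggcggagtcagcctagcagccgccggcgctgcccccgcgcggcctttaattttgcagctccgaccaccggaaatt
RCOR1: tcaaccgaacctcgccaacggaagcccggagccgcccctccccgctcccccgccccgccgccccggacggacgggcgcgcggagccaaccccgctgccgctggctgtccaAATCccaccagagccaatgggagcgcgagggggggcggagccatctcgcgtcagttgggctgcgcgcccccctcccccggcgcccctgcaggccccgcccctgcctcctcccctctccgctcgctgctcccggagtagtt
Promoters (250 bases before and 50 after a start site) were found for 9 of the 10 genes, 15 windows in all. RCOR2 had none in the set used, so the counts that follow do not cover it. AATC was in 11 of the 15, against 69% of all 35116 promoters, and the longer AAATCAC was in none, against 3.14%. AGGTCA was in 1, that of GFI1, against 13.8%. These matches are descriptions of the letters and not binding sites.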

How the data were processed

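RNA-seq of 16 OCI-AML3 libraries was used. Per the labels and the study's methods, the authors counted reads per gene and deposited DESeq2-normalized counts, a signal in which each library is divided by its size factor; the submitters' processing notes name FastQC, cutadapt, STAR, featureCounts and DESeq2, and the genome build, annotation and strand setting are not given in the sources used here. The labels and the methods name different RNA and library kits. Whole reads were recovered for 100% of values.

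The 14643 genes averaging 10 or more normalized counts were put on a log2(value + 1) scale and fitted with limma 3.58.1 (R 4.3.3) with 1 coefficient per group and a mean-variance trend. P-values were adjusted by Benjamini-Hochberg over all genes, within each of 9 comparisons, and a gene was called at an adjusted p under 0.05. Groups follow the labels. A gene at no more than 3 reads in a library was treated as at the floor. Limits from reads cover counting error only. On simulated counts for ATRA with inhibitors against ATRA, 200 of 14643 genes were changed by 1 log2 unit up or down. Of these limma called 87%, and it called 15 others. Most differences of the tested genes were smaller and far more genes were called in the data, so the simulation gives no power for them.

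The genes and lists were chosen with earlier results of these data known. Named genes are the 10 genes, up to 4 per direction from each list among genes called the same way in both inhibitor comparisons, and the 2 most similar profiles. SPI1, also a marker, is named besides as the remaining gene of its list called lower in both. ITGAM, FCN1, CD14 and S100A12 are named as the other tested genes of the list of responses to LSD1 inhibitors. Alternatives were other pseudocounts (0.5 and 5), all genes unfiltered, a stricter filter (mean 50), quantile normalization, only the groups compared, a 1.5-fold limit, edgeR 4.0.16 with TMM and DESeq2 1.42.0 on recovered reads, a replicate block, and each library left out. Chosen after seeing the data were scaling to total reads, leaving out 2 libraries together, and all alternatives of the list counts. A coding sequence of 1 further gene is not reported here.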

Additional observations from a re-analysis of the deposited data

How the results depend on the processing

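Of 31 calls over the 9 genes and 9 comparisons, 25 held in every alternative run other than the 1.5-fold limit, and none changed direction. RCOR2 could not be tested with a mean of at least 50. The 6 calls that were lost in some alternative were all small. Without the filter, adjusted p rose just past the limit for HDAC2 (0.0544) and GFI1 (0.0564) with ATRA, for KDM1A (0.0550) and GFI1 (0.0535) with Am80, and for RCOR3 on adding the inhibitors to Am80 (0.0550), so that ATRA against untreated cells had 1 gene called and Am80 had 0. With only the groups compared, GFI1 with ATRA (0.0599) and KDM1A (0.0985) and GFI1 (0.106) with Am80 were lost, leaving 0 with Am80. HDAC2 with ATRA was lost without ATRA replicate 2 (0.136), GFI1 without ATRA replicate 1 (0.0715) or Am80 replicate 1 (0.0620), KDM1A with Am80 without Untreated replicate 2 (0.0534), and RCOR3 in Am80 with inhibitors against untreated cells without replicate 1 of that combination (0.0656).

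With a 1.5-fold limit the counts were 0 and 0 for the retinoids, 1 and 1 for the combinations against untreated cells, and 2 (ATRA) and 1 (Am80) on adding the inhibitors. On adding the inhibitors to ATRA, quantile normalization called 8 and scaling to total reads 9 genes. Between Am80 and ATRA, DESeq2 and the replicate block each called 1, HDAC2 (adjusted p = 0.0440 with the block). Between the combinations, 1 gene, HMG20B, was called with only the groups compared and without the 2 libraries. Leaving out each library gave 2 to 4 genes for ATRA and 1 to 2 for Am80 against untreated cells, 7 to 7 and 6 to 8 for the combinations, 5 to 6 and 6 to 7 on adding the inhibitors, 0 to 1 for Am80 against ATRA, and 0 to 0 for the other 2. Of 216 list counts under alternatives, 214 stayed within 1.5 times, and the NuRD, SIN3, MIER and MiDAC list gave 5 to 8 with Am80, with 5 without Am80 replicate 1 or replicate 1 of Am80 with inhibitors.

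Without dividing by length, in the order untreated, ATRA, Am80, ATRA and Am80 with inhibitors, the RCOR1 share was 64.2, 64.7, 64.4, 72.5 and 75.2%, the RCOR2 share 0.955, 1.30, 1.34, 0.162 and 0.204%, and the HDAC1 share 49.5, 53.4, 50.1, 54.3 and 55.1%. Leaving out 1 library moved none of these shares by over 1 SD. No single library can move a mean by as much as 1 SD of the same values, so this check could not have failed. The replicate block changed no call but those of HDAC2 above and HMG20B, called lower on adding the inhibitors to ATRA (adjusted p = 0.0396). Replicate numbers were not used as pairs: deviations of same-numbered libraries correlated between -0.112 and 0.187 over 30 pairs, and 5 of 16 libraries correlated best with their own number.

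Depth limits GFI1B, at no more than 2 reads, and RCOR2, at 4 to 9 reads with the inhibitors. The interaction and the direct comparison of the retinoids bound differences only as far as their intervals.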
